A study of Mus musculus with 8 samples.

Results

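Interferon-stimulated genes were followed in brown adipose tissue (BAT) of obese male mice with and without the orexin receptor type 1 (Ox1R) in serotonergic cells. The set held 36 genes of the 44674 in the count table, named by symbol and found through the GENCODE annotation of the GRCm38 genome, and each matched a single row. By the rule of the list, 31 of them were described as type I-type genes, comprising 19 antiviral effectors, 6 sensors of viral nucleic acid and 6 transcription factors and feedback genes. The other 5 were GTPases typical of the response to interferon gamma, namely Gbp2, Gbp3, Igtp, Irgm1 and Iigp1. RNA from BAT of 4 control and 4 Ox1RΔSERT mice was sequenced, each library from a different animal. Both groups carried Ox1R alleles flanked by loxP sites on both chromosomes, and the Ox1RΔSERT mice carried in addition 1 copy of Sert-Cre, in which the promoter of the serotonin transporter gene Slc6a4 drives the recombinase, whereas their littermate controls had no Cre. All 8 were male, had received a high-fat diet (HFD) from week 4 to week 18 of age, had a jugular catheter, were fasted and then infused with insulin and glucose, and gave their BAT at the end of that clamp. The comparison asked how gene expression in BAT of insulin-stimulated obese mice differed with the loss of Ox1R in serotonin transporter-expressing cells.

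Interferons are secreted when a cell senses viral nucleic acid or when lymphocytes are activated. Type I interferons bind a receptor that signals through Jak1 and Tyk2 to a complex that includes Stat2 and Irf9 and binds the interferon-stimulated response element (ISRE) in the promoters of genes such as the Ifit, Oas and Mx families. Interferon gamma signals through Jak1 and Jak2 to factors that bind the gamma-activated sequence (GAS) and induce guanylate-binding proteins (Gbp) and immunity-related GTPases (Igtp, Irgm1, Iigp1). Many genes answer to both. Most tissues express many of them at a low basal level without infection.

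The libraries held 35852708 to 50063339 estimated counts (median 42559742), of which 33.6% to 46.8% came from the mitochondrial genome. Along the first principal component, which carried 53.6% of the variance of all tested genes, Ox1RΔSERT mouse 1 (77) and mouse 4 (59.3) stood apart from the other 6 mice, which lay between -44.3 and 7.1. Ucp1, the uncoupling protein that defines brown adipocytes, was at 1863 to 2638 TPM, the length-corrected unit in which each library sums to 1000000, in the 8 libraries. The targeted gene Hcrtr1, which encodes Ox1R, had 0 to 5 counts in the 4 control and 0 to 5 in the 4 Ox1RΔSERT libraries, so the deletion could not be checked in this tissue. Each interferon-stimulated gene had at least 10 counts in every library and all 36 passed the filter on low counts, against 14489 genes in all.

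Some of the promoters held letters through which such genes are known to answer interferon, and examples are given for members of both groups. RefSeq promoter windows of 300 bases (250 before and 50 after the start of transcription, GRCm38.p6) were at hand for 26 of the 36 genes. Of these, 3 genes had 2 windows and counted if either held a motif, whereas the shares over all windows count single windows. The core of the ISRE, spelled GAAANNGAAA and searched on both strands, was present in the window of 16 of these 26 genes, and in 3.44% of all 32851 promoter windows. Among the 22 type I-type genes with a window 12 held it, and among the 4 gamma-type GTPases with a window all 4 did. The GAS, spelled TTCNNNGAA and identical in form on both strands, was in the windows of 6 of the 26 genes (Ifit2, Oas1a, Ifi35, Bst2, Ifitm3 and Igtp) and in 8.3% of all windows. Both motifs lay in the windows of Bst2, Ifitm3, Igtp and Oas1a, and in 0.454% of all windows. The 250 bases before the start are shown for Oas1a, the type I-type gene with the lowest adjusted p by DESeq2, and for Igtp, a gamma-type GTPase, since both hold both motifs. Shorter stretches of up to 60 bases show the ISRE core of Isg15, Ifit1, Stat2, Gbp2 and Irgm1. Capitals mark ISRE cores and GAS, and a run of capitals longer than 10 bases holds ISRE cores that overlap.
Oas1a, chr5:120907526-120907775, minus strand: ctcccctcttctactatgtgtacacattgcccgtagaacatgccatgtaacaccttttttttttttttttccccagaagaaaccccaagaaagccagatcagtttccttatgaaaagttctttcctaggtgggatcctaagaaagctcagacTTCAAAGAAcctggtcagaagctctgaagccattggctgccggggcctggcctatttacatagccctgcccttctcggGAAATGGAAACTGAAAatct
Igtp, chr11:58199306-58199555, plus strand: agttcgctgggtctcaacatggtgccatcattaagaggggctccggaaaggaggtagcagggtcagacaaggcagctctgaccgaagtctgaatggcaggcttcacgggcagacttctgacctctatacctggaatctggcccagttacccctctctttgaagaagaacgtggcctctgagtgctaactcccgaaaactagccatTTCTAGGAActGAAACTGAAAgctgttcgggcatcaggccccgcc
Isg15, chr4:156200850-156200909, minus strand: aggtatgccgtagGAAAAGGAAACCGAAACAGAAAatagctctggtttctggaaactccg
Ifit1, chr19:34640779-34640838, plus strand: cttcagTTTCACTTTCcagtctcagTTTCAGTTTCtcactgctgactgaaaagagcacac
Stat2, chr10:128270251-128270310, plus strand: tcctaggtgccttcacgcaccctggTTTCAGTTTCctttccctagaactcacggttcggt
Gbp2, chr3:142620579-142620638, plus strand: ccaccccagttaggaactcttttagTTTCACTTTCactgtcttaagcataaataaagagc
Irgm1, chr11:48871421-48871469, minus strand: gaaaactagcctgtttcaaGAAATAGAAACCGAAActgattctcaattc
In Oas1a the ISRE cores began 20 and 14 bases before the start of transcription and the GAS 98 bases before it. In Igtp the GAS began 45 bases and the ISRE core 34 bases before the start, so that only 2 bases separated them. Isg15 held 3 overlapping cores beginning 78, 72 and 66 bases before the start. A match of letters is a description of the window and no measurement of binding.

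Interferon-stimulated genes were high in the same 3 mice, and these mice were of both genotypes. For every one of the 36 genes, the 3 highest levels belonged to control mouse 1 and Ox1RΔSERT mice 1 and 4, an arrangement seen in 838 of all 14489 tested genes (5.78%). The order within these 3 mice differed between the groups of genes. Ox1RΔSERT mice 1 and 4 were the 2 highest for 23 of the 31 type I-type genes (20.1% of all tested genes), whereas control mouse 1 was the highest of all mice for 3 of the 5 gamma-type GTPases and for 6 of the 31 type I-type genes (18.7% of all tested genes). These arrangements were noticed in the values and are given as counts without a test.

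**Figure D1:**
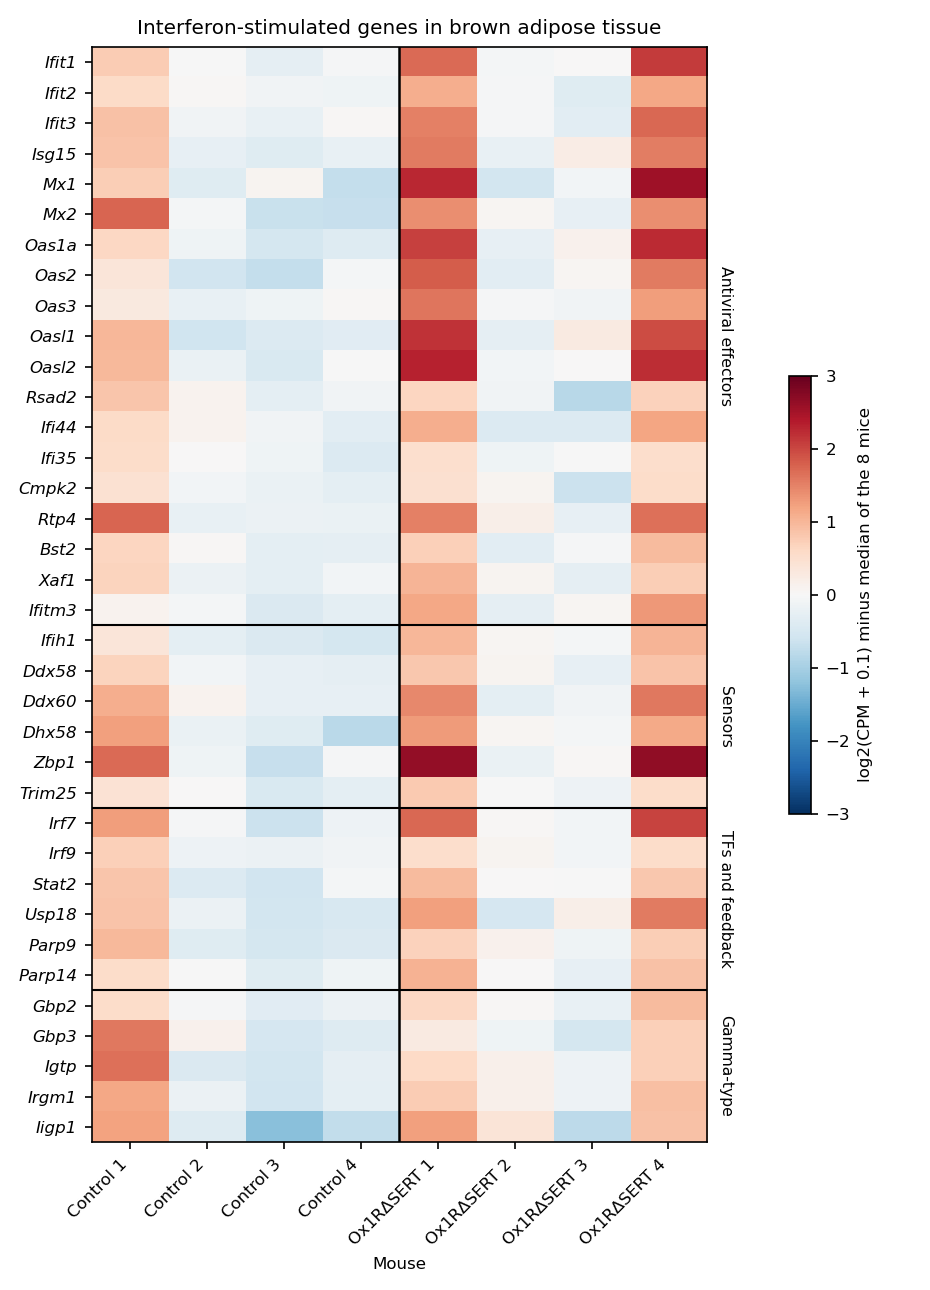
Level of each of the 36 interferon-stimulated genes (rows, by role) in each of the 8 mice (columns), as log2 of counts per 1000000 plus 0.1 minus the gene's median over the 8 mice. The columns of control mouse 1 and of Ox1RΔSERT mice 1 and 4 are above the median in every row, and control mouse 1 is the highest of all mice for Gbp3, Igtp and Irgm1.

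Between genotypes, 0 of the 36 genes was called. By edgeR's quasi-likelihood test, 0 of 14489 genes (0%) had an adjusted p under 0.05, and the adjusted p of the 36 ranged from 0.316 to 0.98, the lowest over all genes being 0.316 as well. At an unadjusted p under 0.05, 4 of the 36 were higher in Ox1RΔSERT mice and 0 lower, against 15.2% of all tested genes in either direction and 10.2% higher. DESeq2 called 265 genes (1.75%) and 0 of the 36, with a lowest adjusted p of 0.115, for Oas1a. The 4 values of a genotype did not overlap the 4 of the other for 0 of the 36 genes, against 5.5% of all tested genes. All 31 type I-type genes had a log2 fold change above 0, with a median of 0.55, while the 5 gamma-type GTPases had a median of 0.28 with 3 of 5 above 0. The median over all tested genes was 0.0021. The difference between the medians of the 2 groups of genes was not tested. In bulk tissue, fewer cells of a type and less RNA per cell cannot be told apart.

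Among the antiviral effectors, the oligoadenylate synthetases had the highest median log2 fold change of the families, 1.37 against 1.08 for the Mx genes and 0.80 for the Ifit genes. The active enzymes among them make a short nucleotide messenger that activates an RNase. Oas1a was at 3.504, 2.03, 1.53 and 1.69 CPM (counts per 1000000 counts of the library, scaled by TMM) in control mice 1 to 4 and at 9.63, 1.88, 2.47 and 10.9 CPM in Ox1RΔSERT mice 1 to 4. Ox1RΔSERT mice 1 and 4 were above all controls, and mice 2 and 3 lay among the controls. The means were 2.19 ± 0.900 and 6.22 ± 4.71 CPM (SD, n = 4 each), the log2 fold change 1.51 (SE 0.59), the edgeR adjusted p 0.316 and the two-sided exact permutation p 0.2. No permutation of 4 against 4 mice can give less than 0.0286. Oas2 showed the same arrangement, with 9.60, 5.04, 4.54 and 7.25 CPM in control mice 1 to 4 against 26.6, 5.98, 7.75 and 22.3 CPM in Ox1RΔSERT mice 1 to 4. Mice 1 and 4 of the Ox1RΔSERT group were the only ones above control mouse 1. Its log2 fold change was 1.25 (SE 0.49, edgeR adjusted p 0.316, exact permutation p 0.2). Of the 5 Oas and Oasl genes among the members, Oasl2 and Oasl1 came after Oas1a, both with a log2 fold change of 1.37. Oas1a has a close copy in Oas1g, so that reads may have been split between them, and Oas1g itself had a log2 fold change of 1.46 (SE 0.83).

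The Ifit genes, whose products bind viral RNA, had their highest levels in the same mice, with 12.6 CPM of Ifit1 in Ox1RΔSERT mouse 4 and 9.56 CPM in mouse 1 against 4.97 CPM in control mouse 1 and 2.38 to 2.90 CPM in the other 5 mice. Ifit1, Ifit2 and Ifit3 lie side by side at chr19:34550694-34650009 (GRCm38). Mx1, a gene of the dynamin-like GTPases, had the largest log2 fold change of all 36 genes, 1.77 (SE 0.79, edgeR adjusted p 0.332). Its level was low, at 0.226 to 0.785 CPM in controls, 0.262 and 0.404 CPM in Ox1RΔSERT mice 2 and 3, and 2.45 and 3.02 CPM in mice 1 and 4. Mx2, annotated as a polymorphic pseudogene, was instead highest in control mouse 1 (2.90 CPM) and had a log2 fold change of 0.40 (SE 0.69).

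Ifitm3, a membrane protein that blocks the entry of viruses, was the most abundant member, at a mean of 65.1 TPM over the 8 mice. Its level was 30.6, 27.3, 21.1 and 23.5 CPM in control mice 1 to 4 and 64.0, 23.7, 30.0 and 70.3 CPM in Ox1RΔSERT mice 1 to 4. Control mouse 1 was close to the other controls here, and the pair of high Ox1RΔSERT mice stood apart from the rest. The log2 fold change was 0.88 (SE 0.34, edgeR adjusted p 0.316, exact permutation p 0.171). Bst2, or tetherin, which holds budding viruses at the cell surface, was next in abundance with a mean of 28.0 TPM. It was at 24.3, 16.1, 12.7 and 12.9 CPM in control mice 1 to 4 and at 25.7, 12.5, 15.1 and 30.3 CPM in Ox1RΔSERT mice 1 to 4. Ox1RΔSERT mice 1 and 4 were above all controls and mouse 2 was below all of them, with a log2 fold change of 0.34 (SE 0.32, edgeR adjusted p 0.61, exact permutation p 0.4). Ifi35, whose product binds the Stat-interacting protein Nmi, had 15.0, 10.3, 9.29 and 7.68 CPM in control mice 1 to 4 and 14.6, 9.32, 10.2 and 14.9 CPM in Ox1RΔSERT mice 1 to 4. All 3 high mice were near 15 CPM, and the log2 fold change was 0.22 (SE 0.24, edgeR adjusted p 0.668, exact permutation p 0.543).

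The 19 antiviral effectors had log2 fold changes from 0.025 for Rsad2, which encodes viperin, to 1.77 for Mx1, with a median of 0.80, and 3 of them (Oas1a, Oas2 and Ifitm3) had an unadjusted p under 0.05. Summed over the 19 genes, the level was 159 CPM in control mouse 1, 83.0 to 99.0 CPM in the other 3 controls, 250 and 260 CPM in Ox1RΔSERT mice 1 and 4 and 93.1 and 98.9 CPM in mice 2 and 3. Rsad2, Mx2, Ifi35 and Rtp4 were the 4 effectors that were highest in control mouse 1. Rtp4, a transmembrane chaperone, reached 10.6 CPM there against 2.63 to 2.71 CPM in the other controls. Per transcript length, the members ranged from the 65.1 TPM of Ifitm3 to 0.336 TPM for Mx1 and 0.185 TPM for the sensor Ddx60. The range of Ifitm3 over the mice (32.4 to 151 TPM) overlapped that of Bst2 (15.5 to 55.2 TPM) and did not meet that of Ifi35 (5.06 to 14.3 TPM), the next in order, while Ifi35 overlapped Trim25 (4.00 to 12.8 TPM), which followed it.

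The sensors of nucleic acid followed the same mice. Ifih1, which encodes the double-stranded RNA sensor MDA5, was at 6.77, 4.25, 3.83 and 3.57 CPM in control mice 1 to 4 and at 10.5, 5.42, 5.01 and 10.7 CPM in Ox1RΔSERT mice 1 to 4. All 4 Ox1RΔSERT values were above those of control mice 2 to 4, and control mouse 1 lay between them. Its log2 fold change was 0.78 (SE 0.32, edgeR adjusted p 0.320), and its exact permutation p of 0.143 was the smallest of the 36. Ddx58, which encodes RIG-I, was at 14.6, 8.66, 7.78 and 7.61 CPM in control mice 1 to 4 and at 16.1, 9.80, 7.72 and 16.9 CPM in Ox1RΔSERT mice 1 to 4. Here the 3 high mice were close to each other, with a log2 fold change of 0.39 (SE 0.31, edgeR adjusted p 0.544, exact permutation p 0.229). Trim25, the ubiquitin ligase that activates RIG-I, had 50.2, 37.3, 27.3 and 30.4 CPM in control mice 1 to 4 and 63.9, 37.1, 33.5 and 54.5 CPM in Ox1RΔSERT mice 1 to 4. The groups overlapped, and the log2 fold change was 0.38 (SE 0.25, edgeR adjusted p 0.47, exact permutation p 0.229). Zbp1, a sensor of Z-form nucleic acid, was at 4.97, 1.33, 0.862 and 1.42 CPM in control mice 1 to 4 and at 9.63, 1.27, 1.504 and 9.70 CPM in Ox1RΔSERT mice 1 to 4. Its log2 fold change of 1.37 (SE 0.81, edgeR adjusted p 0.423, exact permutation p 0.229) had the largest standard error of the 36. Ddx60 and Dhx58, cofactor and regulator of RIG-I signalling, had log2 fold changes of 0.68 (SE 0.56) and 0.55 (SE 0.51). All 6 sensors had control mouse 1 as their highest control, as had all 36 genes, against 33.6% of all tested genes.

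Transcription factors and feedback genes had a median log2 fold change of 0.46, and 0 of 6 was higher at an unadjusted p under 0.05, against 10.2% of all tested genes. Irf7, the factor that amplifies the type I response, was at 14.5, 5.90, 3.78 and 5.42 CPM in control mice 1 to 4 and at 20.0, 6.14, 5.64 and 24.8 CPM in Ox1RΔSERT mice 1 to 4. The 3 high mice were clear of the other 5, and the log2 fold change was 0.94 (SE 0.58, edgeR adjusted p 0.445, exact permutation p 0.2). Irf9, the DNA-binding partner of Stat2, had 22.6, 12.3, 12.1 and 12.6 CPM in control mice 1 to 4 and 19.6, 14.6, 12.8 and 20.1 CPM in Ox1RΔSERT mice 1 to 4. Control mouse 1 was the highest of all, and the log2 fold change was 0.17 (SE 0.24, edgeR adjusted p 0.744, exact permutation p 0.657). Parp9, a partner of the ubiquitin ligase Dtx3l, was likewise highest in control mouse 1, at 24.8, 9.80, 8.72 and 9.33 CPM in control mice 1 to 4 and 20.7, 14.0, 11.6 and 21.3 CPM in Ox1RΔSERT mice 1 to 4. All 4 Ox1RΔSERT mice were above the other 3 controls, and the log2 fold change was 0.36 (SE 0.37, edgeR adjusted p 0.644, exact permutation p 0.4). Parp14, a mono-ADP-ribosyltransferase, had 22.7, 15.5, 12.0 and 14.2 CPM in control mice 1 to 4 and 32.1, 15.6, 13.1 and 28.8 CPM in Ox1RΔSERT mice 1 to 4. The log2 fold change of Parp14 was 0.48 (SE 0.32, edgeR adjusted p 0.472, exact permutation p 0.257), with overlapping groups. Usp18, which removes Isg15 from proteins and dampens receptor signalling, was at 3.61, 1.71, 1.30 and 1.35 CPM in control mice 1 to 4 and at 4.67, 1.33, 2.20 and 5.92 CPM in Ox1RΔSERT mice 1 to 4. Its log2 fold change was 0.83 (SE 0.51, edgeR adjusted p 0.444, exact permutation p 0.229). Stat2 had a log2 fold change of 0.45 (SE 0.35). Irf9 shares 123 exonic bases with Rnf31 on the same strand, and Parp9 shares 458 with Dtx3l on the opposite strand, so part of their counts may belong to those neighbours.

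**Figure D2:**
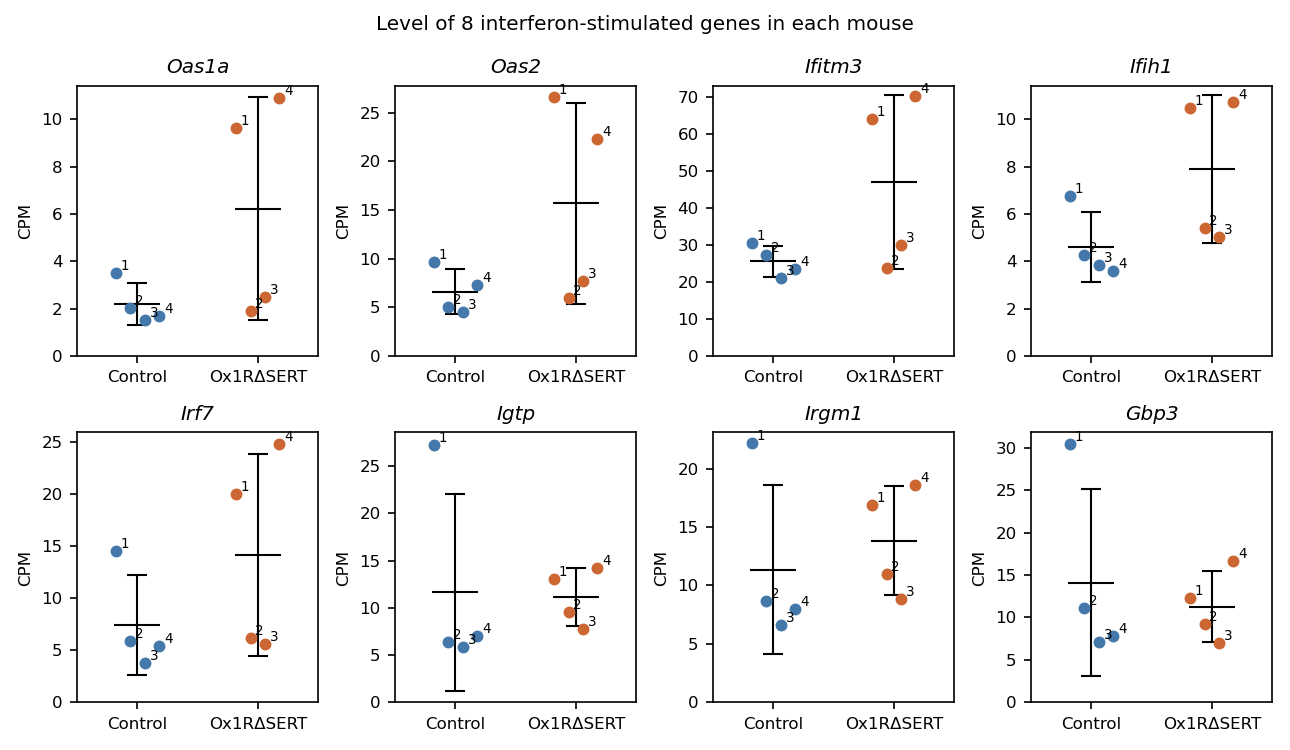
CPM of 8 interferon-stimulated genes in the 4 control (blue) and 4 Ox1RΔSERT (orange) mice, numbered by mouse, with the mean as a long bar and the SD as whiskers (n = 4). Ox1RΔSERT mice 1 and 4 stand above control mouse 1 for Oas1a, Oas2, Ifitm3, Ifih1 and Irf7, and below it for Igtp, Irgm1 and Gbp3.

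Of the gamma-type GTPases, Gbp3, Igtp and Irgm1 were highest in control mouse 1, Gbp2 in Ox1RΔSERT mouse 4 and Iigp1 in Ox1RΔSERT mouse 1. These proteins attack the vacuoles of intracellular pathogens. Igtp was at 27.3, 6.34, 5.86 and 7.07 CPM in control mice 1 to 4 and at 13.1, 9.54, 7.72 and 14.3 CPM in Ox1RΔSERT mice 1 to 4. All 4 Ox1RΔSERT mice were above control mice 2 to 4 and all 4 were below control mouse 1. The means were 11.6 ± 10.4 and 11.2 ± 3.04 CPM (SD, n = 4 each), with a log2 fold change of -0.059 (SE 0.51, edgeR adjusted p 0.964, exact permutation p 1.0), whose sign turned with the scaling. Irgm1 had 22.2, 8.69, 6.60 and 7.99 CPM in control mice 1 to 4 and 16.8, 10.96, 8.87 and 18.6 CPM in Ox1RΔSERT mice 1 to 4. Again every Ox1RΔSERT mouse was above control mice 2 to 4 and below control mouse 1, and the log2 fold change was 0.28 (SE 0.41, edgeR adjusted p 0.75, exact permutation p 0.657). Iigp1 was at 20.5, 6.66, 3.59 and 5.19 CPM in control mice 1 to 4 and at 20.7, 11.5, 5.07 and 16.2 CPM in Ox1RΔSERT mice 1 to 4. Control mouse 1 and Ox1RΔSERT mouse 1 were level, and the log2 fold change was 0.58 (SE 0.59, edgeR adjusted p 0.642, exact permutation p 0.371). Gbp2 had 20.5, 13.4, 10.97 and 12.2 CPM in control mice 1 to 4 and 21.4, 14.3, 11.9 and 27.0 CPM in Ox1RΔSERT mice 1 to 4. Its arrangement was that of the type I-type genes, with Ox1RΔSERT mice 4 and 1 highest, and the log2 fold change was 0.39 (SE 0.29, edgeR adjusted p 0.518, exact permutation p 0.257). Gbp3, named here after its values were seen, was at 30.4, 11.1, 7.08 and 7.77 CPM in control mice 1 to 4 and at 12.2, 9.28, 6.98 and 16.6 CPM in Ox1RΔSERT mice 1 to 4. It had the lowest log2 fold change of the 36, -0.32 (SE 0.48, edgeR adjusted p 0.765, exact permutation p 0.8286). Summed over the 5 GTPases, control mouse 1 had 121 CPM, the other controls 34.1 to 46.2 CPM, and Ox1RΔSERT mice 1 to 4 had 84.3, 55.6, 40.5 and 92.8 CPM. Gbp2 and Gbp3 are neighbours on chromosome 3, and Igtp shares 162 exonic bases with Irgm2 on the same strand.

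Each mouse was left out in turn, and the type I-type median moved most with control mouse 1 and with Ox1RΔSERT mice 1 and 4. Without Ox1RΔSERT mouse 1 or mouse 4, the type I-type median was 0.30 and 0.33 and 0 of the 31 genes had an unadjusted p under 0.05. The gamma-type median was 0.15, 0.074 and 0.14 without control mice 2, 3 and 4, and 0.18, 0.35, 0.44 and 0.11 without Ox1RΔSERT mice 1, 2, 3 and 4. Without control mouse 1, the median log2 fold change was 1.02 for the type I-type genes and 0.79 for the gamma-type GTPases, and 20 of the 31 and 3 of the 5 were higher at an unadjusted p under 0.05, against 9.15% of the genes tested. The edgeR adjusted p of the 36 was then still at least 0.306. Without that mouse the groups no longer overlapped for 9 of the 36 genes, all higher in Ox1RΔSERT mice (6.93% of all tested genes), namely Isg15, Oasl1, Ifih1, Dhx58, Stat2, Irf9, Parp9, Igtp and Irgm1. Control mouse 1 was the highest control for all 36 genes, against 33.6% of all tested genes. Leaving it out therefore raised their log2 fold changes by construction, and the shares over all genes for this setting are no like comparison. DESeq2 without control mouse 1 called 4 of the 36 (Parp9, Oasl1, Iigp1 and Igtp) beside 2.64% of all genes. Without Ox1RΔSERT mouse 2 it called 7, all type I-type (9.44% of all genes), and without mouse 3 it called 4 (6.02% of all genes), while it called 0 of the 36 when any of the other 5 mice was left out. Without both Ox1RΔSERT mice 1 and 4, the medians were -0.17 and -0.19, only 3 of the 36 log2 fold changes (Oas2, Ifitm3 and Ifih1) were above 0, and 0 of the 36 had an unadjusted p under 0.05. These mice were the highest of their group for all 36 genes, so a fall of the medians was fixed by leaving them out. What remains compares Ox1RΔSERT mice 2 and 3 with the 4 controls. No label gives a reason to leave out any mouse.

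**Figure D3:**
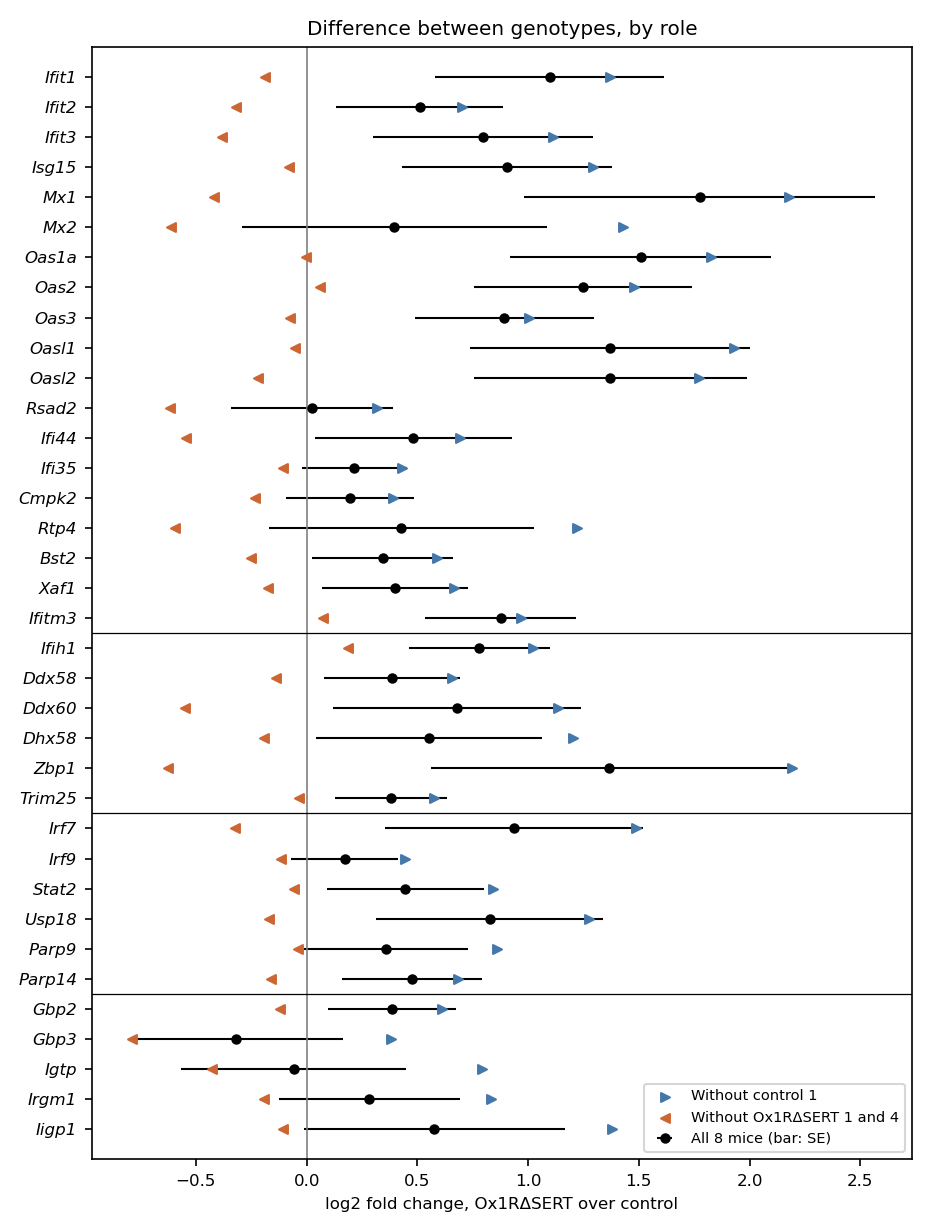
Log2 fold change of Ox1RΔSERT over control mice for each of the 36 genes, by role from top (antiviral effectors) to bottom (gamma-type GTPases), with all 8 mice (black, bar = SE), without control mouse 1 (blue) and without Ox1RΔSERT mice 1 and 4 (orange). The blue points lie to the right of the black ones for all 36 genes, and the orange ones to the left. Both shifts follow from the mice left out, which were the highest of their group for all 36 genes.

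The interferons themselves were at or near the limit of detection. Of 21 interferon genes, 18, including every interferon alpha gene in the list, had 0 counts in all 8 libraries, and the others (Ifnb1, Ifnz and Ifng) had at most 3 counts in any library. The 0 counts allow a level of up to 3 counts, or 0.0592 to 0.0951 CPM depending on the library, with counting error only. The receptors and Janus kinases were detected in all mice, and 4 of 9 were higher in Ox1RΔSERT mice at an unadjusted p under 0.05 and 0 lower, against 10.2% of all tested genes higher. These were Ifnar1, Ifngr2, Jak2 and Tyk2. Jak2 had a log2 fold change of 0.59 (SE 0.20, edgeR adjusted p 0.316), Ifngr2, a chain of the interferon gamma receptor, 0.58 (SE 0.25, adjusted p 0.328) and Tyk2 0.35 (SE 0.15, adjusted p 0.325). Of 8 further transcription factors of the pathway, 3 were higher and 0 lower at that threshold (10.2% of all tested genes higher). Besides Ciita, they were Irf8 (log2 fold change 1.30, SE 0.41, edgeR adjusted p 0.316) and Irf2 (0.28, SE 0.11, edgeR adjusted p 0.32). Ciita, the activator of MHC class II genes, did not overlap between the groups, at 0.0903 to 0.412 CPM in controls and 0.633 to 1.499 CPM in Ox1RΔSERT mice (log2 fold change 1.76, SE 0.47, edgeR adjusted p 0.316, DESeq2 adjusted p 0.0412).

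Among 8 genes listed as inhibitors of the pathway, 3 were higher and 0 lower at an unadjusted p under 0.05, beside the same 10.2% of all tested genes higher. The 3 were Socs3, Ptpn6 and Trim30a (log2 fold change 1.27, SE 0.50). Trim30a and Isg20 of this list are themselves interferon-induced genes. Socs3, an inhibitor of Janus kinases, was at 17.0, 4.53, 5.78 and 13.1 CPM in control mice 1 to 4 and at 43.0, 18.8, 19.3 and 48.2 CPM in Ox1RΔSERT mice 1 to 4. The groups did not overlap, with a log2 fold change of 1.68 (SE 0.49, edgeR adjusted p 0.316, DESeq2 adjusted p 0.0292). Ptpn6, a phosphatase of blood cells, had a log2 fold change of 1.77 (SE 0.49, edgeR adjusted p 0.316, DESeq2 adjusted p 0.0288), while the broadly expressed phosphatase Ptpn2 had 0.043 (SE 0.087). A further 45 type I-type genes were tested that were no members, of which 9 were higher (20%, against 10.2% of all tested genes) and 1 lower at that threshold, with a median log2 fold change of 0.47. The 9 higher ones, from the lowest p, were Tdrd7, Ifi207, Ifitm1, Ifi204, Ifitm2, Ifi203, Shisa5, Epsti1 and Trim30d. Log2 fold changes were 0.37 (SE 0.10) for Tdrd7, 1.27 (SE 0.37) for Ifi207 and 1.80 (SE 0.54) for Ifitm1. Ifi204 had 1.46 (SE 0.49) and Ifitm2 0.35 (SE 0.12), all with an edgeR adjusted p of 0.316. Of the 9, DESeq2 called Ifi207 alone (adjusted p 0.0336). The lower one was Ifi27 (log2 fold change -0.34, SE 0.14, edgeR adjusted p 0.326), at 1100.1 ± 129 CPM in control and 872 ± 132 CPM in Ox1RΔSERT mice (SD, n = 4 each). The 15 further gamma-type GTPases tested had a median log2 fold change of 0.042, with 1 higher at that threshold (Ifi47, 1.29, SE 0.55, edgeR adjusted p 0.325) and 0 lower, against 10.2% of all tested genes higher. Irgm2, the neighbour of Igtp, was at 38.3 CPM in control mouse 1 and at 7.94 to 11.3 CPM in the other controls, against 10.9 to 21.4 CPM in Ox1RΔSERT mice.

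Markers of macrophages moved with the type I-type genes in Ox1RΔSERT mice 1 and 4, and not in control mouse 1. All 14 of 14 macrophage markers were higher in Ox1RΔSERT mice at an unadjusted p under 0.05, against 10.2% of all tested genes. By edgeR, 0 of the 14 had an adjusted p under 0.05. DESeq2 called Fcgr1 (adjusted p 0.0109), Cd14, Ptprc, Itgam, Mrc1, Tyrobp and Laptm5 at that threshold, beside 1.75% of all genes. It did not call the other macrophage markers of the list. Their sum was 174 to 381 CPM in controls and 276 to 1352 CPM in Ox1RΔSERT mice, and none of the markers was at 0. The sum was 1078 and 1352 CPM in Ox1RΔSERT mice 1 and 4 and 276 and 316 CPM in mice 2 and 3. In control mouse 1 it was 266 CPM, within the range of the other controls, while its type I-type genes summed to 358 CPM against 173 to 210 CPM in the other controls. Ptprc, the common leukocyte antigen, was at 5.62 CPM in control mouse 1 and at 24.0 and 26.9 CPM in Ox1RΔSERT mice 1 and 4. The 13 brown adipocyte markers summed to 14375 to 15752 CPM in controls, 9426 and 10154 CPM in Ox1RΔSERT mice 1 and 4, and 13817 and 13337 CPM in mice 2 and 3. Neutrophil markers summed to 7.08 to 27.5 CPM in controls, with control mouse 1 the highest, and to 14.7 to 52.2 CPM in Ox1RΔSERT mice, with Ly6g at 0 to 4 counts. Markers of plasmacytoid dendritic cells, which secrete type I interferon, summed to at most 0.256 CPM in any mouse, those of NK cells to at most 1.48 CPM, of T cells to at most 3.23 CPM and of B cells to at most 0.883 CPM. Fibroblast markers summed to 361 CPM in control mouse 1, 515.6 to 988 CPM in the other controls, 2501 and 5378 CPM in Ox1RΔSERT mice 1 and 4 and 646 and 950.2 CPM in mice 2 and 3. Endothelial markers summed to 291 to 414 CPM in controls and 287 to 396 CPM in Ox1RΔSERT mice. Skeletal muscle markers were high in control mouse 2 and Ox1RΔSERT mouse 1 (1726 and 2330 CPM) and low in control mouse 1 (47.2 CPM). The part of these cell types in the levels of the interferon-stimulated genes was not tested.

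**Figure D4:**
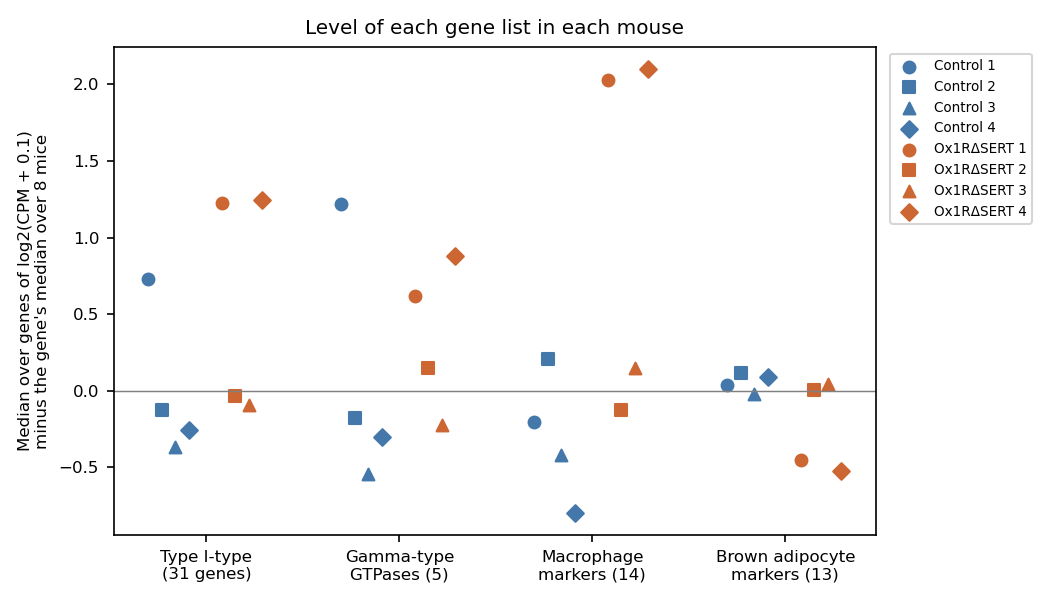
Level of the type I-type genes (31), the gamma-type GTPases (5), macrophage markers (14) and brown adipocyte markers (13) in each mouse, as the median over genes of log2 CPM (plus 0.1) minus the gene's median over the 8 mice. Control mouse 1 lies at 0.73 and 1.22 for the 2 groups of interferon-stimulated genes and at -0.21 for macrophage markers, where Ox1RΔSERT mice 1 and 4 lie at 2.03 and 2.10.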

How the data were processed

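Poly-A RNA of BAT from 4 control and 4 Ox1RΔSERT mice was sequenced. The authors quantified the reads with Salmon 0.14.1 on the mouse genome build GRCm38.p6 and deposited estimated counts per gene, which are not normalized, and TPM, which are scaled to a total of 1000000 per library and corrected for transcript length; STAR is also listed in the submitters' processing notes. The annotation release and the strand setting are not given in the sources used here. The authors' own comparison with DESeq2 1.26.0 was not used. No 2 libraries held identical values. Gene IDs were named through GENCODE M21, by which 44118 of 44674 (98.8%) had a symbol. The 36 members, the other gene lists and the marker lists were chosen with earlier results of these data known. The values of a gene of the pathway are not reported here. Groups follow the genotype labels.

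Estimated counts were rounded, filtered by filterByExpr (14489 genes), scaled by TMM and compared with edgeR 4.0.16 (quasi-likelihood test, two-sided, Benjamini-Hochberg over all genes tested, threshold 0.05) in R 4.3.3. DESeq2 1.42.0, limma 3.58.1, other scalings, filters and TPM, and leaving out mice were alternatives; the edgeR and DESeq2 fits were tested on simulated data. Standard errors were derived from the F statistic. Exact permutation tests ran over all 70 assignments on CPM (scipy 1.17.1). Levels between genes were compared only as TPM. Given in full were, per role, the 3 members with the highest mean TPM, the 3 with the lowest p and any whose groups did not overlap. With 35852708 to 50063339 counts per library, 3 counts correspond to 0.0592 to 0.0951 CPM; such floors cover counting error only.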

Additional observations from a re-analysis of the deposited data

Results flagged for a closer look

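In each group of 4 mice, the gap of the highest or lowest mouse to its nearest neighbour was compared with the range of the group (Dixon's ratio, at the 95% limit for 4 values). Of 72 groups (36 genes in 2 genotypes), 13 were past the limit, which by its setting about 1 in 20 groups pass by chance. The share past it among all tested genes was not computed. Whether the 13 are an excess particular to these genes can therefore not be read from this count. In all 13 the mouse that stood apart was control mouse 1, at the high end, with ratios of 0.831 to 0.99, and 11 of the genes were type I-type and 2 gamma-type GTPases. The genes are not independent of each other, since all share the same libraries.

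Among the effectors, control mouse 1 had 5.91 CPM of Ifit3 (other controls 2.71 to 3.23), 4.58 CPM of Isg15 (1.89 to 2.10), 2.90 CPM of Mx2 (0.452 to 0.761), 2.51 CPM of Oasl1 (0.761 to 0.926), 10.6 CPM of Rtp4 (2.63 to 2.71) and 7.14 CPM of Xaf1 (3.64 to 4.22). Among sensors it had 14.6 CPM of Ddx58 (7.61 to 8.66), 6.22 CPM of Dhx58 (1.45 to 2.25) and 4.97 CPM of Zbp1 (0.862 to 1.42). Irf9 was at 22.6 CPM (12.1 to 12.6) and Parp9 at 24.8 CPM (8.72 to 9.80). Of the GTPases, Igtp was at 27.3 CPM (5.86 to 7.07) and Irgm1 at 22.2 CPM (6.60 to 8.69). No mouse of the Ox1RΔSERT group was past the limit for any of the 36 genes. In that group mice 1 and 4 were the 2 highest for all 36 genes. A gap to the nearest neighbour cannot single out mice that are high as a pair, so this is no sign of an even group.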

How the results depend on the processing

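The count of genes called by edgeR was 0 under every alternative scaling and filter, with an adjusted p under 0.1 and with any mouse or both Ox1RΔSERT mice 1 and 4 left out, and 0 by limma, whereas DESeq2 called 265. The medians of the type I-type genes and gamma-type GTPases stayed above 0 when 1 mouse was left out (0.30 to 1.02 and 0.074 to 0.79). Total count scaling and TPM moved the median of all genes by 0.22 to 0.32, and relative to it the medians were 0.37 to 0.585 and 0.295 to 0.36. Without both Ox1RΔSERT mice 1 and 4, the highest of their group for all 36 genes, the type I-type median was -0.17. The count of type I-type genes higher at an unadjusted p under 0.05 (4) became 9 with total count scaling, with DESeq2 and with no filter, 1 with limma voom, 0 without both mice and 0 to 20 without 1 mouse (20 without control mouse 1, 11 and 10 without Ox1RΔSERT mice 2 and 3, and 0 without any other mouse). Without both mice the log2 fold change turned for Oas1a (-0.0035), Ifi35 (-0.11), Bst2 (-0.25), Ddx58 (-0.14), Zbp1 (-0.62), Trim25 (-0.033), Irf7 (-0.32), Irf9 (-0.12), Usp18 (-0.17), Parp9 (-0.040), Parp14 (-0.16), Gbp2 (-0.12), Irgm1 (-0.19) and Iigp1 (-0.11). Igtp turned to 0.15 with total count scaling, 0.26 with voom, 0.42 and 0.55 on TPM (pseudocounts 1 and 0.1), 0.79 without control mouse 1 and 0.078 without Ox1RΔSERT mouse 3 (range -0.30 to 0.79 without 1 mouse), and its exact permutation p on TPM was 0.743. The causes were not tested. The other 323 of 343 values for the 18 genes given in full kept their direction and their side of the threshold. Leaving out mice with DESeq2, and the counts of genes whose groups did not overlap and of genes at an unadjusted p, were added after seeing the data. No paired analysis was possible because the labels give the groups no shared replicate numbers.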
